A study of Mus musculus with 5 samples.

Results

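The hnRNP and SR splicing factors were taken as all probe sets whose single gene symbol in the platform annotation begins with Hnrnp, Hnrp, Srsf or Sfrs, the last being the older name of Srsf. This gave 91 probe sets out of 45101 on the array, for 29 genes out of 18193 that have at least 1 probe set with a single symbol. Of these, 58 probe sets belong to 19 hnRNP genes and 33 to 10 SR genes. The rule used names only and no measured value, but it was set with earlier results of these data known. Srsf7 has no probe set with a single symbol in the annotation used and was not analysed here.

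Heterogeneous nuclear ribonucleoproteins (hnRNPs) coat nascent transcripts and often make the spliceosome pass over weak exons. SR proteins, named for their arginine- and serine-rich tails, bind exonic enhancers and recruit the spliceosome, so that the balance between both families helps to decide which exons are kept. In T cells the best known case is Ptprc, which encodes the phosphatase CD45: its variable exons are skipped after activation, and hnRNP L-like (Hnrnpll), hnRNP L and PTBP1 are known to act on them.

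RNA was measured on 5 Affymetrix arrays in CD4+ T cells of BALB/c background mice aged 7 to 12 weeks. All mice were SCID, a strain that cannot complete rearrangement of its own antigen receptor genes, and carried a T cell receptor transgene against the MOPC315 myeloma, a plasma cell tumor. The 3 activated samples were CD4+ GB113+ cells, GB113 being an antibody staining named in the labels. They were sorted to at least 95% purity on day 8 from axillary lymph nodes draining a subcutaneous injection of 100000 MOPC315 cells in 250 µl of growth factor-reduced Matrigel. The 2 naive samples were CD4+ cells from the pooled nodes of TCR-transgenic SCID mice that received no tumor. Each activated sample pooled the nodes of 12 to 15 mice in an independent experiment, and the naive samples came from separate experiments too. No animals given Matrigel alone were analysed here, so injection and tumor cannot be told apart.

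The values are probe set intensities on a linear scale, and every log2 change below is activated minus naive, of log2(intensity + 16). With 3 arrays against 2, precision is limited by their number. Probe sets above the 40th percentile of their array on at least 2 of 5 arrays were tested, which kept 89 of the 91 (97.8%, against 64.9% of all probe sets that are not array controls). The 2 left out, Hnrnpd 1458273_at and Srsf1 1457136_at, were dim on nearly every array, the first lying between 8.0 and 8.4 on 4 arrays and at 19.9 on naive 2, the second between 2.8 and 16.8. In this bulk RNA, fewer cells of a type and less RNA per cell cannot be told apart.

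Few hnRNP and SR probe sets differed between naive and activated cells beyond the spread of the arrays. Of 89 tested, 4 rose (4.49%) and 0 fell (limma, Benjamini-Hochberg adjusted p under 0.05 over 29240 probe sets). The background was 4.8% of all tested probe sets called higher and 2.94% called lower, so the members' count of rises was near the background. The 4 belong to 3 genes, Hnrnpab with 2 probe sets, Hnrnpr and Srsf10. At an unadjusted p under 0.05, 11 members were higher (12.4%) and 8 lower (8.99%), against 11.5% and 10.9% of all probe sets tested. All 89 log2 changes lay within 1 of 0, from -0.77 to 0.94, with a median of 0.01 for the members and -0.03 for all probe sets tested. The median standard error was 0.20 and the median half-width of the unadjusted 95% interval was 0.44. A change of that size or smaller in a single probe set would often not have been called. Because calls used the adjusted p, larger changes could also go uncalled, such as -0.77 for Hnrnpdl 1424252_at and 0.70 for Srsf9 1417727_at.

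Among hnRNPs 3 of 57 tested probe sets rose and 0 fell, with 5 higher and 2 lower at an unadjusted p under 0.05. Among SR proteins 1 of 32 rose and 0 fell, with 6 higher and 6 lower at that level. In 21 members (23.6%) every activated array lay above both naive arrays, against 18.8% of all probe sets tested. In 16 (18%) every activated array lay below both, against 20.3%. With 1 probe set per gene, the one with the highest mean log2 value, 0 of 29 genes rose and 0 fell (limma), with 1 higher and 1 lower at an unadjusted p under 0.05. None of the called probe sets was the brightest of its gene, so none entered this gene count. Hnrnpab entered by 1426114_at, which was at 8755 in naive 1 and 981 in naive 2. The background was 6.36% of 12873 genes called higher and 4.14% called lower, and 12.8% and 11.5% at the unadjusted level.

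**Figure D1:**
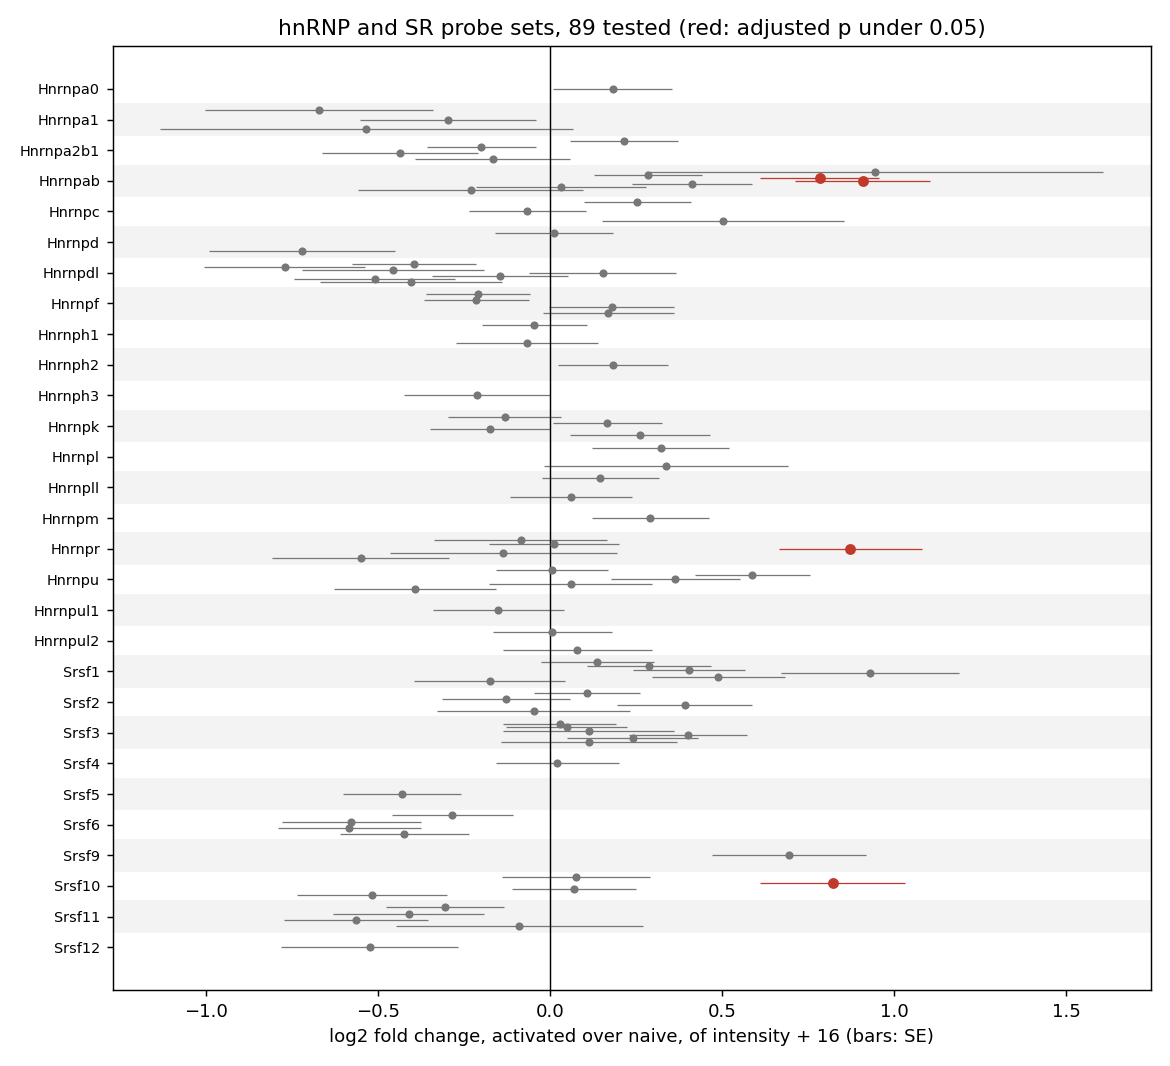
Log2 change (x axis, activated over naive, of intensity + 16) of each tested hnRNP and SR probe set, by gene (y axis), with the standard error as a bar. Red points are the 4 probe sets that rose, 2 of Hnrnpab and 1 each of Hnrnpr and Srsf10. In 12 of the 20 genes with more than 1 tested probe set, points lie on both sides of 0.

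The promoters of the 3 genes with a called probe set are shown because the 4 called probe sets belong to them. They are windows of the RefSeq promoter table on GRCm38.p6, on the strand of the gene, and capitals mark the CCAAT box on either strand (CCAAT or ATTGG). They lie at chr11:51606832-51607131 on the minus strand for Hnrnpab, chr4:136310692-136310991 on the plus strand for Hnrnpr and chr4:135855821-135856120 on the plus strand for Srsf10. The Srsf10 window begins past the first base of that gene in the RefSeq gene table.
Hnrnpab: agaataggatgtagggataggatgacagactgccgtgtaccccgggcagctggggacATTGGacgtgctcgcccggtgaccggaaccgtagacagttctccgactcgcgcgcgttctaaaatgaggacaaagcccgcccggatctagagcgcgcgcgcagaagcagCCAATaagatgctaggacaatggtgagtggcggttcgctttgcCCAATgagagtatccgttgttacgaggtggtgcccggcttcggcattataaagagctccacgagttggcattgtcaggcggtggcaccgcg
Hnrnpr: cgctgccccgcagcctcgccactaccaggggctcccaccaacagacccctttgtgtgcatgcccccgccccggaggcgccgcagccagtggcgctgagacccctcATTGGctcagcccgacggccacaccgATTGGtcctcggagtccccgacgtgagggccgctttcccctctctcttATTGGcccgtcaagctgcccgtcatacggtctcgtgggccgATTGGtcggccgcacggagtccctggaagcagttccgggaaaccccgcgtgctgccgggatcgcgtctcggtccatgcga
Srsf10: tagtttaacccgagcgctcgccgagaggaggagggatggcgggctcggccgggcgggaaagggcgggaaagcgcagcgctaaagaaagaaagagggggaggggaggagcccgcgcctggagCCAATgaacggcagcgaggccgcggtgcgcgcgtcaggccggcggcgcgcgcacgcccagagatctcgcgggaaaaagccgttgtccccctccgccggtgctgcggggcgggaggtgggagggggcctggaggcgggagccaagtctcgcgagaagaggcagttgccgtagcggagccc
The Hnrnpab window holds 3 CCAAT boxes, the Hnrnpr window 4 and the Srsf10 window 1. Hnrnpr has a further window in the table, at chr4:136311348-136311647, with 0 matches to CCAAT. Over all member genes, 27 of 29 matched the promoter table, with 39 windows. CCAAT was found in 20 of these 39 (51.3%), against 37.4% of 32851 windows in the table. The GC box (GGGCGG on either strand) was in 32 of 39 (82.1%, against 35.7%), the ETS motif (CCGGAAG) in 9 (23.1%, against 8.86%), the E-box (CACGTG) in 4 (10.3%, against 7.15%) and TATAAA in 4 (10.3%, against 13.6%). Some genes have several windows, and some of these overlap, so the windows are not independent. Counted by gene, of the 27 matched, CCAAT was in 16, the GC box in 22, the ETS motif in 5, the E-box in 4 and TATAAA in 4. The percentages above are by window, and a share by gene over the whole table is not given here. These matches describe letters in the window and not sites of binding.

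Hnrnpab encodes hnRNP A/B, an RNA-binding relative of hnRNP D. By probe set 1453849_s_at its intensity was 2108, 1672 and 1475.5 in activated 1, 2 and 3, and 1029 and 813 in naive 1 and 2. All activated arrays were above both naive arrays. The means were 1752 ± 324 (SD, n = 3) and 921 ± 153 (SD, n = 2), a log2 change of 0.91 with a standard error of 0.20 and an adjusted p of 0.0196 by limma. Probe set 1415914_at gave 2341, 2007 and 1729.9 in activated cells and 1159.8 and 1162 in naive cells, again with no overlap. Its means were 2026 ± 306 (SD, n = 3) and 1161 ± 1.84 (SD, n = 2), and its log2 change was 0.78 with a standard error of 0.17 and an adjusted p of 0.0225 by limma.

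The other Hnrnpab probe sets were not called. The brightest, 1426114_at, lay at 6378, 6215 and 4605 in activated cells but at 8755 in naive 1 and 981 in naive 2, so its naive arrays stood on either side of every activated array. Its log2 change of 0.94 had a standard error of 0.67 and an adjusted p of 0.452. It was 2.51 (adjusted p = 0.00045 by limma) without naive replicate 1 and -0.62 (adjusted p = 0.229) without naive replicate 2, so that a single naive array set its direction. Probe set 1448144_at was at 297, 297 and 340.0 against 213 and 246, and 1455855_x_at at 3913, 3446 and 3816 against 2865 and 3248. Both lay higher in every activated array, with log2 changes of 0.41 (adjusted p = 0.196) and 0.28 (adjusted p = 0.327). The dim 1459880_at and 1431349_at were at 0.03 and -0.23.

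Hnrnpr encodes hnRNP R, an RNA-binding protein closely related to Syncrip. Its probe set 1452030_a_at was at 341.5, 283.5 and 315 in activated cells and 201 and 132 in naive cells, without overlap. The means were 313 ± 29.0 (SD, n = 3) and 167 ± 49.1 (SD, n = 2). The log2 change was 0.87, with a standard error of 0.21 and an adjusted p of 0.0314 by limma. The brighter 1437526_x_at and 1427129_a_at had log2 changes of -0.08 and 0.01 (adjusted p = 0.889 and 0.980). The dim 1429232_at lay lower in every activated array, at 25.8, 20.2 and 31.6 against 34.0 and 58.2, with a log2 change of -0.55 and an adjusted p of 0.242.

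Srsf10 encodes an SR protein known as a splicing repressor once it is dephosphorylated. Its probe set 1418527_a_at was at 465, 298 and 394 in activated cells and at 222 and 194 in naive cells, without overlap. The means were 385 ± 83.7 (SD, n = 3) and 208 ± 19.7 (SD, n = 2). The log2 change was 0.82, with a standard error of 0.21 and an adjusted p of 0.0419 by limma. Probe set 1449121_at of the same gene lay the other way, at 124, 165.5 and 179 in activated cells and 265 and 196 in naive cells, with a log2 change of -0.52 and an adjusted p of 0.191. The brightest Srsf10 probe set, 1423982_at, was at 422, 378 and 575 against 376 and 485, and 1418526_at was at 281, 238.5 and 239.5 against 221 and 260. Their log2 changes were 0.08 (adjusted p = 0.881) and 0.07 (adjusted p = 0.868).

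The 4 calls were lost under several settings. Without a filter their adjusted p was 0.055 to 0.080, and without activated replicate 1 it was 0.066 to 0.127. Without naive replicate 2 it was 0.106 to 0.199 by limma. Without activated replicate 2 the count of rises was 1, the Srsf10 probe set. Without activated replicate 3 both Hnrnpab probe sets stayed called, while those of Hnrnpr and Srsf10 were not. Srsf9 1417727_at was then called higher and Hnrnpdl 1424252_at lower, with a log2 change of -1.01 (adjusted p = 0.0146 by limma). No array could be left out with all 4 calls kept, so an equal count under another setting need not mean the same probe sets.

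**Figure D2:**
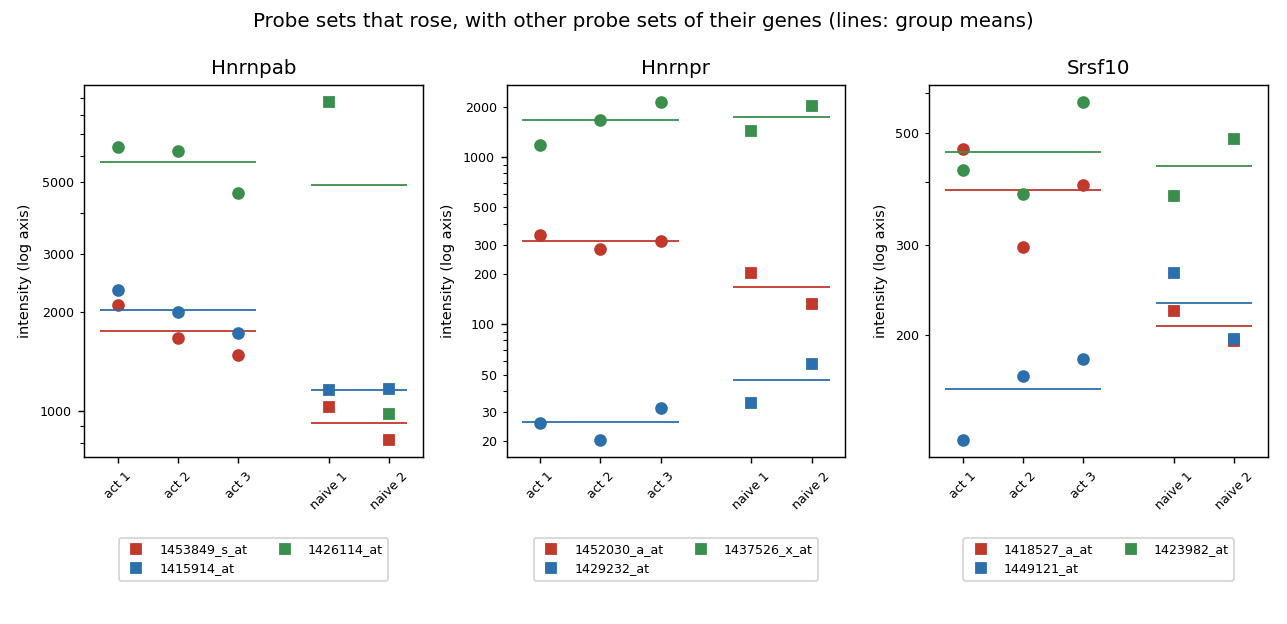
Intensity (y axis, log scale) by array (x axis) for the probe sets that rose and for other probe sets of the same genes. Circles are activated arrays, squares naive arrays and lines group means. Each gene is shown by its called probe sets, the uncalled one with the largest log2 change and the brightest uncalled one. The called probe sets separate the groups, Hnrnpr 1429232_at and Srsf10 1449121_at lie the other way, and Hnrnpab 1426114_at is at 8755 and 981 in the naive arrays.

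Of the 20 genes with more than 1 tested probe set, 4 had every probe set higher in activated cells (Hnrnpl, Hnrnpll, Hnrnpul2 and Srsf3), 4 had every probe set lower (Hnrnpa1, Hnrnph1, Srsf11 and Srsf6) and 12 had some in each direction. Each tested probe set was then compared with the mean of the other probe sets of its gene on the same array, a test chosen after seeing the data. By limma 0 of 80 members were called in either direction, against 0.166% of 16843 probe sets called higher and 0.19% lower. At an unadjusted p under 0.05, 6 of the 80 were higher and 6 lower, against 6.81% and 6.53% of the 16843. The furthest were Hnrnpr 1452030_a_at, 1.06 above the rest of its gene on the log2 scale (standard error 0.27, adjusted p = 0.173), and Srsf10 1418527_a_at, 0.95 above (standard error 0.27, adjusted p = 0.212). The transcript forms these probe sets detect were not known here, and probe sets with the suffix _a_at, _s_at or _x_at can match several transcripts. At the unadjusted level, all 6 higher probe sets had such a suffix and all 6 lower ones had none. The share of this split over all probe sets is not given here. Values within a gene also depend on each other: the 2 tested Hnrnpd probe sets, at 0.73 and -0.73, count once on each side.

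Among the SR proteins with known enhancing roles, Srsf1, the founding member of the family, had 5 of 6 tested probe sets higher in activated cells and none called. The furthest, 1452430_s_at, was at 713, 489 and 673 against 425 and 234, without overlap, with a log2 change of 0.93, a standard error of 0.26 and an adjusted p of 0.0568. The brightest, 1434972_x_at, was at 2222, 2407 and 2682.5 against 2054 and 2374, with a log2 change of 0.14 and an adjusted p of 0.685. Srsf9, which has a single probe set, was at 443, 344 and 264 against 223 and 189, without overlap, with a log2 change of 0.70, a standard error of 0.22 and an adjusted p of 0.0951.

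Srsf2 and Srsf3, which bind exonic enhancers and also take part in nuclear events beyond splicing, had no called probe set. The brightest Srsf2 probe set, 1427504_s_at, was at 1784, 1709 and 1663 against 1516 and 1674, with a log2 change of 0.11 (adjusted p = 0.741). The brightest Srsf3 probe set, 1416150_a_at, was at 1972, 1718 and 1860.5 against 1655 and 1982, with a log2 change of 0.03 (adjusted p = 0.947). Srsf4 had a log2 change of 0.02 (adjusted p = 0.962).

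Srsf5 and Srsf6, SR proteins that also bind exonic enhancers, and Srsf11, an SR-related protein, had lower means in activated cells, and 0 of their 9 tested probe sets was called by limma. At an unadjusted p under 0.05 by limma, 5 of these 9 probe sets were lower, against 10.9% of all probe sets tested. These genes are set together because their means were lower, so the count does not describe the SR family. Over all 32 tested SR probe sets, 6 were higher and 6 lower at that level. Srsf5 1423130_a_at was at 1704, 1609 and 2132 in activated cells against 2434 and 2431, without overlap, with a log2 change of -0.43, a standard error of 0.17 and an adjusted p of 0.174. The brightest Srsf6 probe set, 1448454_at, was at 1780.0, 1785 and 2354 against 2338 and 2431, so activated 3 reached the naive level. Its log2 change was -0.28 (adjusted p = 0.388). The other 3 Srsf6 probe sets had log2 changes of -0.42 to -0.58 (adjusted p = 0.123 to 0.220) and no overlap between the groups. Srsf11 1430077_at was at 230.5, 244 and 205 against 423 and 276, without overlap, with a log2 change of -0.56 and an adjusted p of 0.145. Srsf12 was dim on every array, at 10.1, 7.4 and 13.2 against 17.5 and 26.1, with an adjusted p of 0.266.

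**Figure D3:**
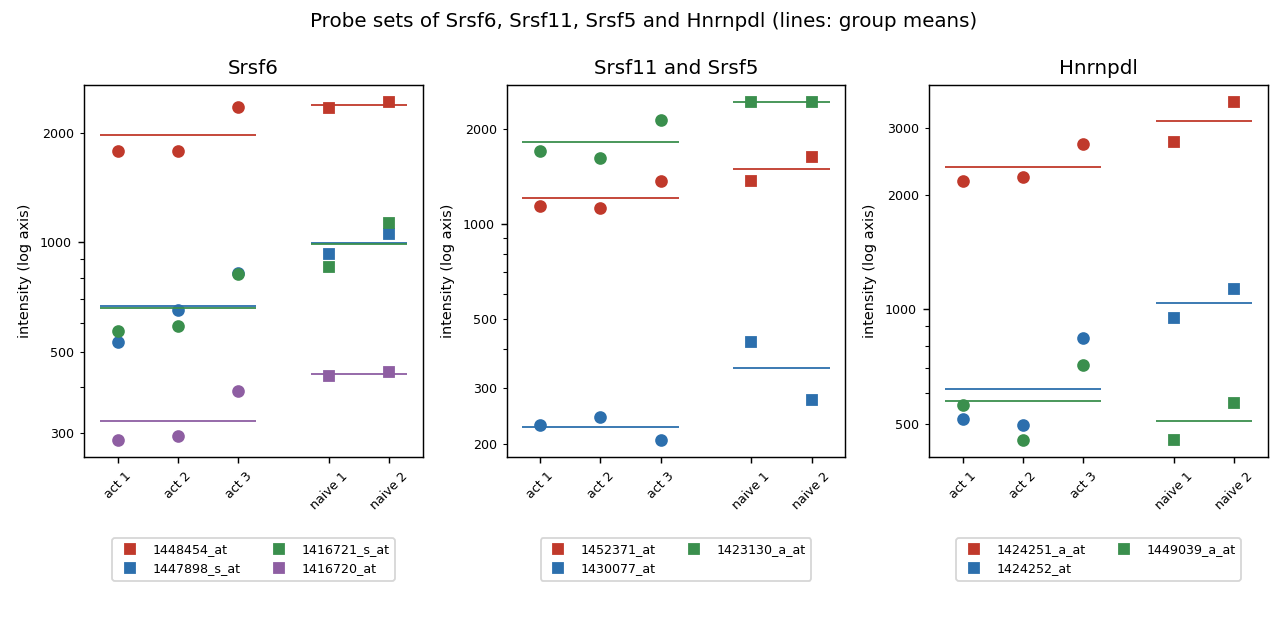
Intensity (y axis, log scale) by array (x axis) of probe sets of Srsf6, of Srsf11 (1452371_at and 1430077_at) and Srsf5 (1423130_a_at), and of Hnrnpdl. Circles are activated arrays, squares naive arrays and lines group means. The activated 3 array lies nearer the naive arrays than activated 1 and 2 do for most of these probe sets, and none of them was called.

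Hnrnpdl, the hnRNP D-like protein, had 6 of 7 tested probe sets lower in activated cells. The furthest, 1424252_at, was at 515, 496 and 838 against 946 and 1127, without overlap, with a log2 change of -0.77, a standard error of 0.23 and an adjusted p of 0.0780. The brightest, 1424251_a_at, was at 2168, 2222 and 2713 against 2748 and 3505, with a log2 change of -0.40 (adjusted p = 0.229). The exception, 1449039_a_at, had a log2 change of 0.15 (adjusted p = 0.733). Hnrnpd itself, which binds AU-rich elements of unstable mRNAs, was at 1302, 1216 and 1071 against 1072 and 1304 by 1425142_a_at, a log2 change of 0.01 (adjusted p = 0.978). Its dim probe set 1457568_at was at 28.4, 10.7 and 23.9 against 42.4 and 44.9, without overlap, with a log2 change of -0.72 and an adjusted p of 0.147.

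Among the abundant core hnRNPs, which package most pre-mRNA, Hnrnpa1, Hnrnpa2b1 and Hnrnpc had no called probe set with a single symbol. Hnrnpa1, an antagonist of SRSF1 at many exons, was at 735.5, 921 and 1427 against 1084 and 2314 by its brightest probe set, 1436549_a_at, with naive 2 far above the rest. Its log2 change of -0.67 had a standard error of 0.33 and an adjusted p of 0.268. Hnrnpa2b1 1420365_a_at was at 3966, 3430 and 3386.5 against 3054 and 3120, higher in every activated array, with a log2 change of 0.21 (adjusted p = 0.471). The other 3 Hnrnpa2b1 probe sets had log2 changes of -0.17 to -0.44.

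Hnrnpc, which binds uridine-rich tracts, was at 2734, 2780 and 2613 against 2113 and 2436, with a log2 change of 0.25 (adjusted p = 0.380). Hnrnpk, which binds cytosine-rich tracts, was at 3490.5, 3872 and 4129 against 3814 and 4600 by 1460547_a_at, with a log2 change of -0.13 (adjusted p = 0.701). Hnrnpu, a large scaffold-binding hnRNP, was at 2367, 2011 and 1920 against 2035 and 2129.5 by 1423051_at, with a log2 change of 0.01 (adjusted p = 0.988). Its probe set 1423050_s_at was at 1523, 1702 and 1500.4 against 934 and 1159, without overlap, with a log2 change of 0.59, a standard error of 0.17 and an adjusted p of 0.0629. The remaining hnRNPs with 1 tested probe set, Hnrnpa0, Hnrnph2, Hnrnph3, Hnrnpm and Hnrnpul1, had log2 changes between -0.21 and 0.29, and the probe sets of Hnrnpf, Hnrnph1 and Hnrnpul2 lay between -0.21 and 0.18.

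The regulators of CD45 exons were looked at by name. Hnrnpll 1425255_s_at was at 738, 669 and 582 against 611 and 579, with overlap, and its log2 change was 0.15, with a 95% interval of -0.23 to 0.53 and an adjusted p of 0.676. Its probe set 1427144_at had a log2 change of 0.06 (adjusted p = 0.885). Hnrnpl 1424101_at was dim, at 77.5, 77.5 and 85.7 against 55.4 and 66.9, higher in every activated array, with a log2 change of 0.32 and an adjusted p of 0.386. Their target Ptprc was at 7639, 7187 and 7150 against 7027 and 6959 by 1422124_a_at, a log2 change of 0.07 (adjusted p = 0.848). Its probe set 1440165_at was at 1366, 1203.5 and 477 against 747 and 617, so activated 3 lay below both naive arrays, with a log2 change of 0.44, a standard error of 0.37 and an adjusted p of 0.542. The exons these cover were not known here, so they give no measure of CD45 exon use.

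Other splicing genes were taken from lists written for this comparison with earlier results of these data known, with 1 probe set per gene. Of all genes tested, 6.36% were called higher and 4.14% lower, the background for the counts below. Of 9 measured hnRNPs that bear other names, 1 rose, 0 fell and the median log2 change was 0.08. The riser was Ptbp1, the polypyrimidine tract-binding protein also called hnRNP I, at 1557, 1249 and 1123 against 841 and 822.5, with a log2 change of 0.63, a standard error of 0.17 and an adjusted p of 0.0447 by limma. Of 52 measured spliceosome core genes, 1 rose and 1 fell, with a median of 0.05. Snrpf, a protein of the Sm ring of snRNPs, rose by 0.68 (standard error 0.17, adjusted p = 0.0261), and Aqr, an intron-binding helicase, had a log2 change of -0.80 (standard error 0.15, adjusted p = 0.00681).

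Of 30 SR-related proteins, SR kinases and the SR importer, 0 rose and 1 fell, against 6.36% and 4.14% of all genes tested. Of the 30, 25 had a negative log2 change, against 53.1% of all genes, with a median of -0.26 against -0.03 for all genes tested. At an unadjusted p under 0.05 by limma 0 were higher and 10 lower, against 12.8% and 11.5% of all genes. The list was written with earlier results of these data known, so these shares describe the list and do not test it. The call was Pnn, an SR-related protein of the exon junction periphery, at 705, 580 and 1036 against 1240 and 1520, with a log2 change of -0.86, a standard error of 0.23 and an adjusted p of 0.0401. Tnpo3, which imports phosphorylated SR proteins into the nucleus, was at 264, 249 and 246 against 344 and 367, with an adjusted p of 0.0897. Of 25 measured other splicing regulators 1 rose and 0 fell, with a median of -0.13. The riser was Ybx1, a cold-shock domain RNA-binding protein, at 2883, 1923 and 1534 against 1137 and 1000.4, with a log2 change of 0.93 and an adjusted p of 0.0338. Ptbp1, Snrpf and Ybx1 were no longer called when any array other than activated 3 was left out, and Pnn likewise. Aqr remained called except without naive replicate 1.

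**Figure D4:**
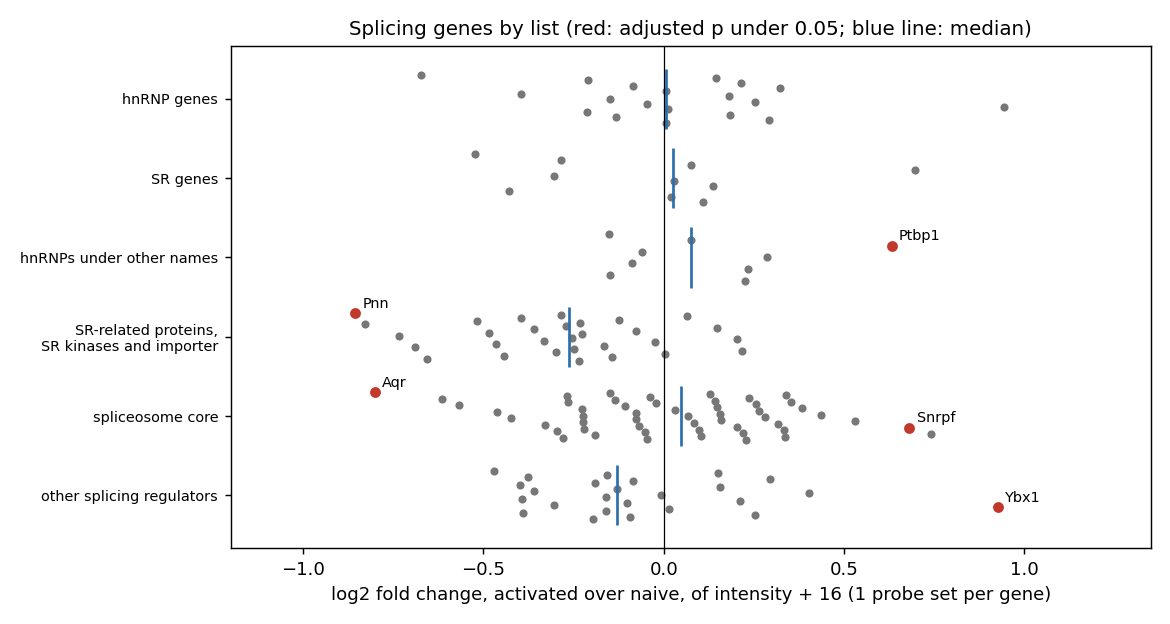
Log2 change (x axis, activated over naive, of intensity + 16) of splicing genes, 1 probe set per gene, by list (y axis). Red points are the 5 genes called, all in the companion lists, and blue lines are medians, which run from -0.26 for SR-related proteins, kinases and importer to 0.08 for hnRNPs under other names.

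The arrays also differed in a way the groups do not explain. The bioC hybridisation control was at 664, 582 and 634 on activated 1, activated 2 and naive 1, and at 151 and 181 on activated 3 and naive 2. The bioB, bioD and cre controls differed less. In the same order of arrays, AFFX-BioB-3_at was at 183, 150 and 188.5, and at 112 and 142. AFFX-BioDn-3_at was at 1921, 2123 and 2393, and at 1710 and 1929. AFFX-CreX-3_at was at 7500, 6801 and 7889, and at 5771 and 7224. Within both groups the arrays with low bioC read higher than those with high bioC in 45 of 89 members (50.6%), against 26.7% of all probe sets tested, and lower in 19 (21.3%), against 34.8%. The median intensity was 18.3 and 17.5 on activated 3 and naive 2, and 20.5, 19.8 and 21.7 on activated 1, activated 2 and naive 1. These shares were not matched for brightness, and its part in them was not tested. The activated minus naive difference was computed on each side of this split, an alternative chosen after seeing the data. Its sign was the same on both sides in 65 of 89 members (73%), against 67.9% of all probe sets. In each called probe set every activated array lay above both naive arrays, so a positive difference on both sides was fixed in advance. On the high and low bioC arrays the differences were 0.86 and 0.85 for Hnrnpab 1453849_s_at. They were 0.89 and 0.57 for Hnrnpab 1415914_at. The values were 0.59 and 1.16 for Hnrnpr 1452030_a_at and 0.71 and 0.96 for Srsf10 1418527_a_at. Hnrnpab 1426114_at was at -0.48 on the high bioC arrays and 2.21 on the low ones.

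With the log2 bioC intensity as a covariate in limma, 7 of 89 members rose and 6 fell. Both counts were near the background of 6.71% and 5.37% of 29240 probe sets. The 7 were the 4 above with Hnrnpu 1423050_s_at, Srsf1 1452430_s_at and Srsf9. The 6 were 2 probe sets of Hnrnpdl, 2 of Srsf6, Srsf11 1430077_at and Hnrnpa1 1436549_a_at. Their adjusted p included 0.0098 for Hnrnpdl 1424252_at and 0.0199 for Srsf6 1416721_s_at. No label says whether the split is a batch.

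**Figure D5:**
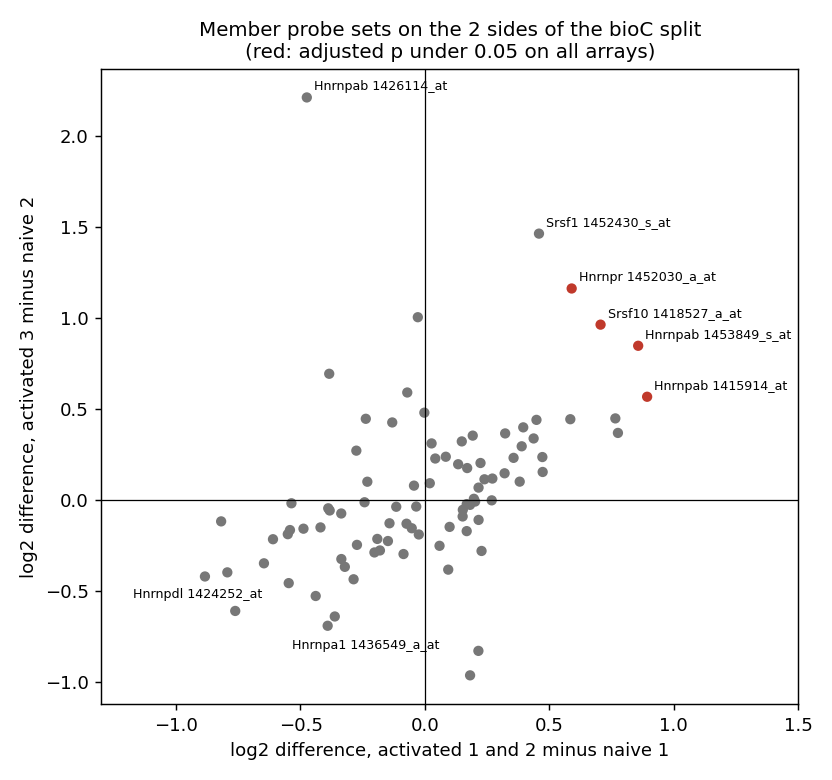
Log2 difference of each tested member on the arrays with high bioC (x axis, activated 1 and 2 minus naive 1) and with low bioC (y axis, activated 3 minus naive 2). Red points are the 4 probe sets that rose on all arrays, and the point furthest from the rest is Hnrnpab 1426114_at, at -0.48 and 2.21.

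Marker genes were checked against the labels. The T cell markers summed to 8760 to 10397 in activated and 8796 to 9136 in naive arrays, and 5 of 5 measured markers of dividing cells rose, with a median log2 change of 3.21. B cell markers summed to at most 94.6 on any array. The sum of 8 myeloid markers was 2659, 104 and 897 in activated 1, 2 and 3 and 313 and 187 in naive cells, and that of 4 NK markers was 1059, 308 and 460 against 170 and 69.7. Most of the NK sum was Eomes, which T cells also express, at 696, 282 and 441 against 155 and 43.4 (adjusted p = 0.00855 by limma). Ncr1 was at 265 in activated 1 and at most 11.2 on the other arrays. Cd8b1 fell, from 798 and 996 in naive cells to 326.5, 247 and 275 after activation (adjusted p = 0.000279 by limma). The ratio of the 3' to the 5' Actb control probe sets, a sign of RNA quality, was 1.19 to 1.29 in activated and 1.42 and 1.78 in naive arrays. The part of these differences in the members' values was not tested.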

How the data were processed

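The authors deposited a linear intensity for each probe set on each array. Neither the scanner software, the summary method nor a genome build is named in the labels. The arrays already had near equal trimmed means, and no scaling was added. Members and gene lists were chosen with earlier results of these data known. Probe sets were named by the platform annotation (34945 with 1 symbol, 932 with several, 9160 with none). From the deposited intensity, log2(intensity + 16) was fitted with limma 3.58.1 in R 4.3.3 (lmFit with the group as only term, eBayes with an intensity trend, two-sided, Benjamini-Hochberg adjustment, threshold 0.05) over all 29240 probe sets that passed the filter, and again over 12873 genes. The code was tested on simulated data.

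Values of every array are given for called members, for a fixed panel of members and for Ptprc, and for called genes of the lists. Other members were named after their values were seen. The alternatives were other normalizations, filters, pseudocounts, variance models and probe set choices, array weights, a replicate block, a bioC covariate and leaving out each array. Group labels came from the sample titles: the treatment text is the same on all samples, the naive ones included.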

Additional observations from a re-analysis of the deposited data

How the results depend on the processing

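The members' count of 4 rises was 0 with no filter, 0 without the intensity trend, 1 over probe sets without a shared-sequence suffix, 7 with the bioC covariate, and 0 to 4 when an array was left out. The 0 falls became 6 with the bioC covariate and were 0 to 1 when an array was left out. At gene level, 0 rises and 0 falls became 1 and 3 with the bioC covariate (9.02% and 7.33% of all genes), and were 0 to 1 and 0 to 0 when an array was left out. With the replicate block, member probe sets gave 7 rises and 7 falls, against 4.67% and 3.12% of all probe sets in that fit. Member genes gave 1 and 3, and companion lists 6 and 14, against 7.57% and 6.18% of all genes. The replicate numbers share only a number: same-numbered arrays deviated together with r = 0.17 for pair 1 and -0.12 for pair 2. Activated 3 has no naive partner by number, so it did not enter the log2 change in the block fit. Hnrnpab 1415914_at was at 0.89 both there and without activated replicate 3. The block fit also left few residual degrees of freedom. The companion lists' 3 rises were 1 with median centring, 1 with no filter, 0 without the trend, 1 with probe sets averaged per gene, 6 with bioC and 0 to 3 when an array was left out. Their 2 falls were 1, 1, 1, 0 and 9 under the same settings and 1 to 4 when an array was left out. Over the whole table, 1403 probe sets called higher became 870 with no filter and 723 to 1331 when an array was left out, and 859 called lower became 510 with no filter, 1571 with bioC and 324 to 645. Of genes, 819 called higher became 462 to 704 when an array was left out, and 533 called lower became 349 with no filter, 944 with bioC and 181 to 494. The cause of these changes was not tested.

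Among named members, signs turned mostly for values near 0. Hnrnpu 1423051_at was -0.0084 with array weights, -0.0031 with bioC and -0.083 to 0.067 when an array was left out. Srsf10 1423982_at was -0.094 with the replicate block and -0.10 to 0.25 when an array was left out. The ranges over left-out arrays were -0.13 to 0.15 for Hnrnpd 1425142_a_at, -0.10 to 0.16 for Srsf3 1416150_a_at, -0.27 to 0.0028 for Hnrnpk 1460547_a_at and -0.62 to 2.51 for Hnrnpab 1426114_at. Intensities without a detection call limit what can be said of dim probe sets.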

Other observations

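Probe sets that the annotation gives to several symbols were outside the members, and 7 of them name an hnRNP. Of these, 3 are shared by Hnrnpa1 with related genes and pseudogenes, and 4 by Hnrnpa3, another core hnRNP, with Gm6793. Probe set 1423531_a_at, of the Hnrnpa1 group, was at 929, 730 and 868 in activated 1, 2 and 3 and at 461 and 491 in naive 1 and 2. It rose by 0.80 on the log2 scale (standard error 0.17, limma adjusted p = 0.0196), while the 3 probe sets with Hnrnpa1 as their only symbol had log2 fold changes of -0.67, -0.30 and -0.53. The other 2 of the shared group had log2 fold changes of 0.47 and 0.28 (adjusted p = 0.204 and 0.423).

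Probe set 1452774_at, of Hnrnpa3 and Gm6793, was at 811, 825 and 1137 in activated cells and at 1351 and 2413 in naive cells. It fell by 0.97 on the log2 scale (standard error 0.25, limma adjusted p = 0.044). The other 3 of that pair of genes had log2 fold changes of 0.24, 0.31 and -0.29 and were not called. Which gene each signal comes from cannot be told apart with these probe sets.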
